A study of Mus musculus with 8 samples.

Results

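The 10 genes described here encode matrix metalloproteinases (Mmp2, Mmp3, Mmp9, Mmp10, Mmp13 and Mmp14), the related protease Adamts1 and the inhibitors of metalloproteinases Timp1, Timp2 and Timp3. They were found as the probes whose accession maps to one of these symbols, which gave 11 of the 39429 probes of the array, and they make up 10 of the 32395 genes or unnamed accessions with a probe. The genes were chosen by their log2 ratios on these same arrays, in every treated array against NT and between the lines, so the values below describe them and no test was run on them. The series comprised 8 two-colour Agilent arrays. The Cy5 channel held the RNA of 1 culture and the Cy3 channel a common reference made from several cultures. Cultures of 3T3L-1, a mouse embryonic fibroblast line used as a pre-adipocyte model, were grown for 48 h with RAW 264.7, a mouse macrophage line, across a permeable insert, and each line was harvested on its own. For each line, 1 array was labelled cortisol (100 µM), 1 serotonin (100 µM), 1 cortisol-serotonin (both agents) and 1 no treatment (NT), and all 8 cultures, NT included, were co-cultures. Each condition had 1 array, so no value has a replicate check. All arrays of a line lay on a slide of their own and each treatment held the same position on both slides, so that line and slide, and treatment and position, cannot be told apart.

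Matrix metalloproteinases are zinc-dependent enzymes that cut collagens, proteoglycans and other proteins around the cell, and most are secreted as inactive precursors. The TIMPs bind the active enzymes and block them, and TIMP3 also blocks several ADAM and ADAMTS proteases. In adipose tissue these enzymes and inhibitors remodel the matrix around growing fat cells, and both fibroblasts and macrophages can secrete them.

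Genes that glucocorticoids are known to induce did not follow the labels. In 3T3L-1 cells, the 17 measured genes of such a list had a median log2 difference from NT of -0.20 under the label cortisol and 0.41 under the label serotonin, and the 15 measured under cortisol-serotonin had 0.60. Fkbp5, Pdk4 and Zbtb16 were at least 2-fold higher in both conditions labelled with serotonin, and Errfi1 and Tsc22d3 fell by 2-fold or more under the label cortisol. In RAW 264.7 cells the medians were -0.18, 0.33 and 0.10 over 15 genes each. Whether labels were exchanged was not tested, and every direction below is that of the label. Fibroblast markers such as Col1a2 and macrophage markers such as Csf1r matched the labelled lines, with 17 of 18 fibroblast markers above background on each 3T3L-1 array and 19 of 19 macrophage markers on each RAW 264.7 array. Transcripts of macrophage markers were also found on 3T3L-1 arrays, where 15 or 16 of 19 were above background and Spi1, Adgre1 and Cybb were on none. Their summed Cy5 level was 14943 to 18002 on 3T3L-1 arrays and 279369 to 323374 on RAW 264.7 arrays. The median Cy5 signal of an array was 51 to 103 over a background of 26.5 to 28, and 43.7% to 47.8% of spots were well above background in both channels.

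In 3T3L-1 cells, Mmp9, Mmp10, Timp1 and Timp3 passed 2-fold below NT with serotonin and with cortisol-serotonin, and Mmp3 and Mmp13 with serotonin only. The lower ratio of Timp1 lay mostly in the reference channel. On the array labelled serotonin, 7 of the 10 differed from NT by at least 2-fold (1 higher, 6 lower), where 1.24% of 13590 measured genes did so (0.515% higher, 0.728% lower). On the array labelled cortisol-serotonin 5 of 10 did (1 higher, 4 lower), beside 1.43% of all genes (0.784% higher, 0.642% lower). On the array labelled cortisol 0 of 10 did, beside 1.65% of all genes. The median log2 difference of the 10 genes was -1.26 with serotonin, -0.79 with cortisol-serotonin and 0.17 with cortisol, beside 0.01, 0.02 and 0.01 over all genes. These 3 comparisons share the NT array. In bulk RNA, fewer cells that transcribe a gene and less RNA per cell cannot be told apart. With arrays centred on their median in place of loess, the median of all genes moved to 1.07 on the array labelled serotonin, and 5 of the 6 lower genes (Mmp9, Mmp10, Mmp13, Timp1 and Timp3) were still at least 2-fold below that median. Against NT itself, median centring gave 4 genes higher and 2 lower with serotonin (55.6% of all genes passed 2-fold) and 4 higher and 1 lower with cortisol-serotonin (49.5%).

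**Figure D1:**
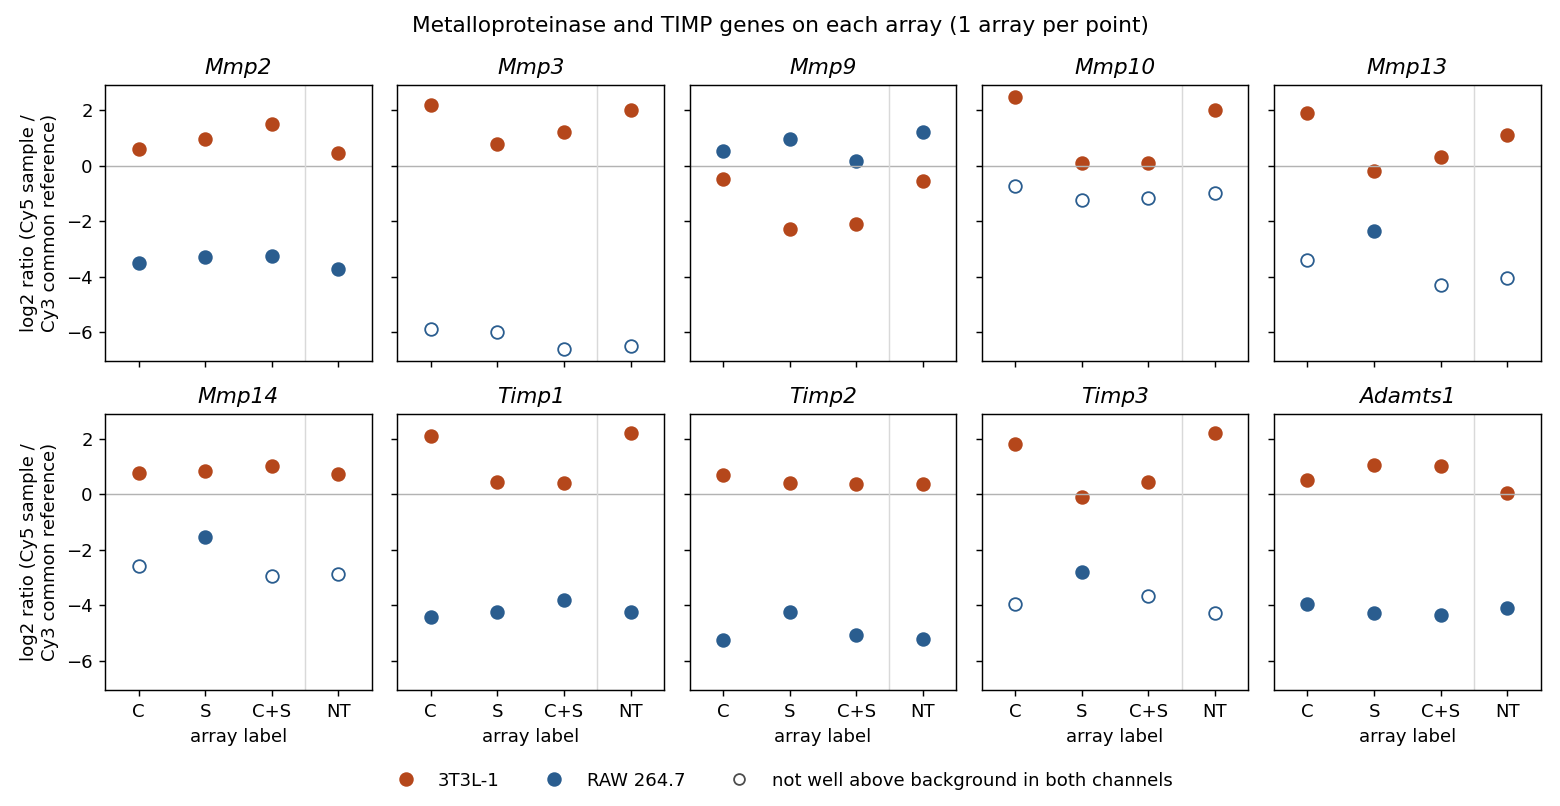
Normalised log2 ratio (Cy5 sample over Cy3 common reference) of each gene on each array, by array label (C, cortisol; S, serotonin; C+S, cortisol-serotonin; NT, no treatment), with 3T3L-1 in orange, RAW 264.7 in blue and open circles where the probe was not well above background in both channels. Each point is 1 array, Timp2 is shown by its probe measured on all 8 arrays, and Mmp3, Mmp9, Mmp10, Mmp13, Timp1 and Timp3 of 3T3L-1 lie lower at S and C+S than at NT.

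Mmp13, Mmp3 and Mmp10 are neighbours in the genome. Mmp13 (collagenase 3) cuts fibrillar collagen, and Mmp3 and Mmp10 (stromelysins 1 and 2) cut proteoglycans and other matrix proteins and can activate other pro-enzymes. RefSeq places 10 metalloproteinase genes side by side on chromosome 9, in the order Mmp13, Mmp12, Mmp1b, Mmp3, Mmp1a, Mmp10, Mmp8, Mmp27, Mmp20 and Mmp7, with no other protein-coding gene in that span. The cell-surface and gelatinase genes Mmp14, Mmp2 and Mmp9 lie on chromosomes 14, 8 and 2. Promoter sequence was given by RefSeq (GRCm38.p6) for 8 of the 10 genes, the others being Mmp2 and Mmp9. TGAGTCA, the site that the AP-1 dimers of Fos and Jun proteins bind, was found on either strand within 250 bases before the start in Mmp3 (position -46), Mmp10 (-63) and Mmp13 (-35, on the reverse strand as TGACTCA). It was not found in that window of Mmp14, Timp1, Timp2, Timp3 or Adamts1. Of 32851 mouse promoters of the same length, 4.46% held it. The 60 bases around each match, shown because the 3 clustered genes share the motif, are chr9:7445751-7445810 for Mmp3, chr9:7502254-7502313 for Mmp10 and chr9:7272454-7272513 for Mmp13, all on the plus strand and 5′ to 3′, with the AP-1 match in capitals.
Mmp3: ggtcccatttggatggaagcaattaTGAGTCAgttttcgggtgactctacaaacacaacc
Mmp10: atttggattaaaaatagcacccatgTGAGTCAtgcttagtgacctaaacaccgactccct
Mmp13: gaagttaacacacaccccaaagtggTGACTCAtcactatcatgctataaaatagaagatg
TATAAA on the gene's strand, found in 7.59% of promoters, lay downstream of the AP-1 match in all 3 (position -7 in Mmp3, -29 in Mmp10 and -16 in Mmp13) and at -32 in Adamts1. AGGAAG, the core of the Ets-family site PEA3, was found on either strand in Mmp3, Mmp13, Mmp14, Timp1 and Timp3 and in 29.5% of all promoters. The palindromic glucocorticoid response element (half-sites AGAACA and TGTTCT with 3 bases between them) was found in none of the 8 and in 0.00913% of promoters. A match describes letters only and shows no binding.

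**Figure D2:**
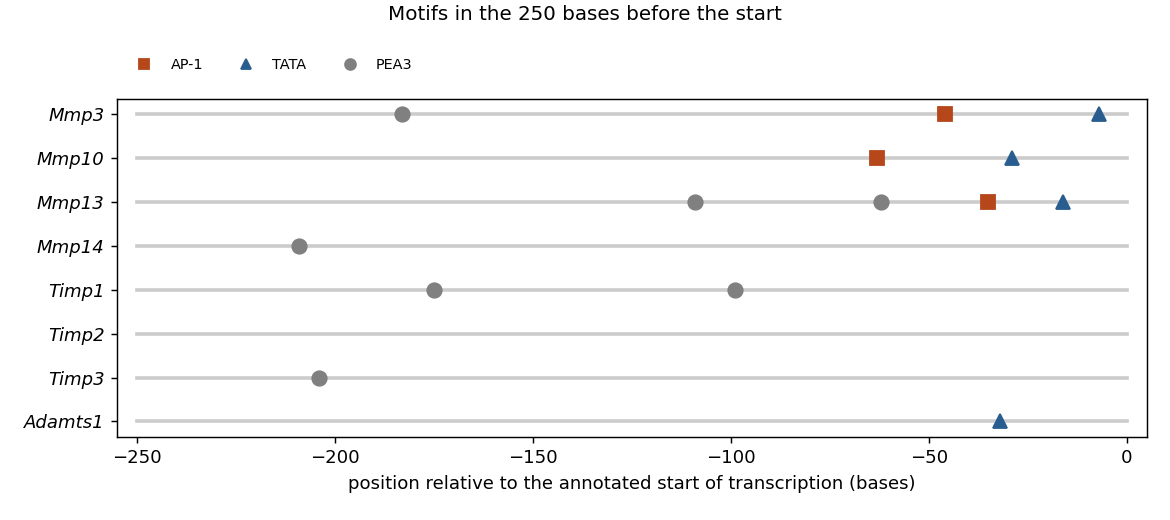
Positions of the AP-1, TATA and PEA3 matches in the 250 bases before the annotated start of the 8 genes with a RefSeq promoter; the x axis is the distance from the start in bases. Mmp3, Mmp10 and Mmp13 each hold 1 AP-1 match, at -46, -63 and -35.

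Mmp10 had log2 ratios of 2.45 (cortisol), 0.08 (serotonin) and 0.09 (cortisol-serotonin), against 2.01 on the NT array. Its Cy5 signals were 664.5, 177 and 133 on the 3 treated arrays, against 626 on the NT array. The arrays with serotonin were both low and close to each other, and the array labelled cortisol was near NT. Mmp10 was 3.82-fold lower with serotonin (log2 difference -1.94 ± 0.42) and 3.80-fold lower with cortisol-serotonin (-1.93 ± 0.45), where ± gives the technical error of the scanner software's log ratios on both arrays. In those log ratios themselves the differences of Mmp10 were -2.80 and -2.88. Mmp13 had log2 ratios of 1.91 (cortisol), -0.19 (serotonin) and 0.31 (cortisol-serotonin), against 1.12 on the NT array. It was 2.47-fold lower with serotonin (-1.30 ± 0.31), and with cortisol-serotonin its difference of -0.80 ± 0.31 did not reach 2-fold. Mmp13 also had the highest of the 10 differences on the array labelled cortisol, 0.79 ± 0.36, which was below 2-fold. Mmp3 had log2 ratios of 2.20 (cortisol), 0.78 (serotonin) and 1.22 (cortisol-serotonin), against 1.99 on the NT array. Its Cy5 signals were 21343, 12447 and 13911 on the treated arrays, in the same order, against 19717 on the NT array. Its difference was -1.22 ± 0.36 with serotonin (2.32-fold lower) and -0.78 ± 0.37 with cortisol-serotonin, which did not reach 2-fold. With median centring, where the median of all genes shifted up, the serotonin difference of Mmp3 turned to 0.14 and that of Mmp13 was -0.12. The cortisol-serotonin difference of Mmp13 turned to 0.29. Of the 3 clustered genes, all 3 thus passed 2-fold lower with serotonin and Mmp10 alone with cortisol-serotonin, and the array labelled cortisol lay above NT by less than 2-fold for each.

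**Figure D3:**
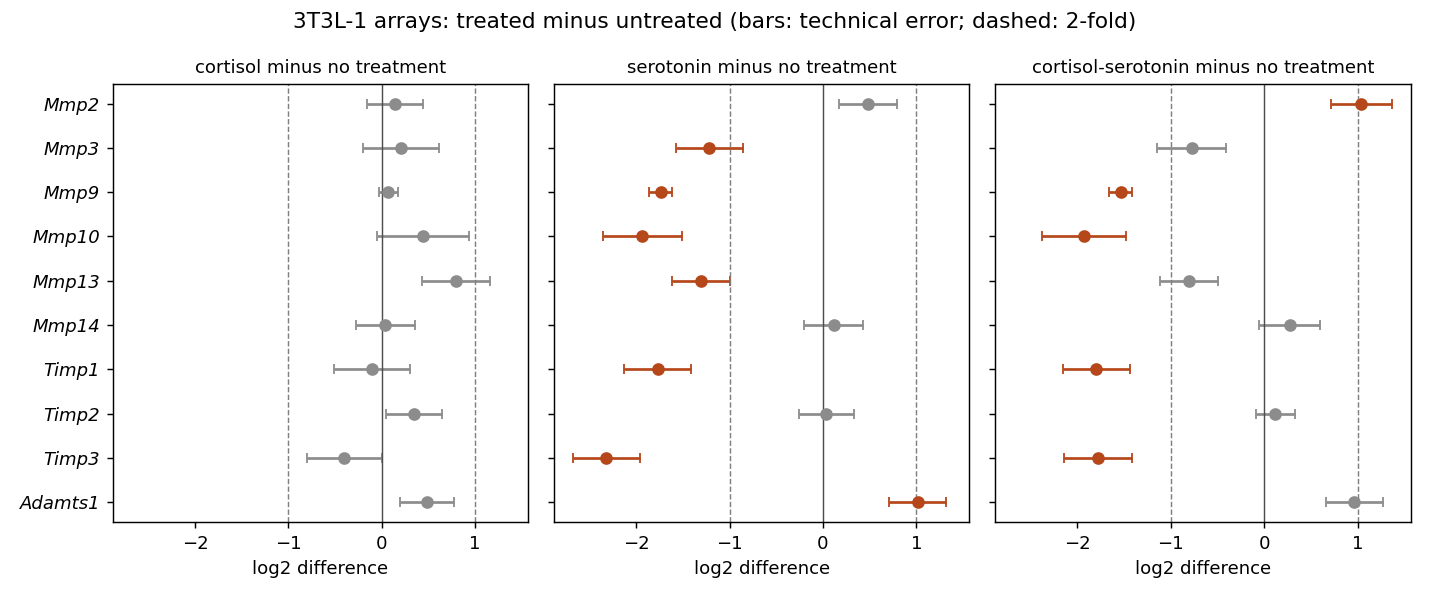
Log2 difference of each treated 3T3L-1 array from the NT array (x axis) for the 10 genes (y axis), with bars for the technical error of both arrays, dashed lines at 2-fold and orange points past it. No gene passed 2-fold on the array labelled cortisol, 7 did with serotonin and 5 with cortisol-serotonin. With median centring the serotonin difference was 0.14 for Mmp3 and -0.12 for Mmp13.

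Mmp9 (gelatinase B) degrades denatured collagen and type IV collagen and is typical of macrophages and neutrophils. Its probe was printed in 10 spots, which gives the error within an array, and 8 to 10 of them were used per array. In 3T3L-1 cells the mean log2 ratio over spots was -0.48 ± 0.07 (cortisol), -2.29 ± 0.15 (serotonin) and -2.09 ± 0.10 (cortisol-serotonin), against -0.55 ± 0.07 on the NT array (SD over spots). The spots ran from -2.50 to -1.94 with serotonin and from -2.19 to -1.86 with cortisol-serotonin, against -0.64 to -0.44 on the NT array. Spots of the arrays with serotonin therefore did not overlap those of the NT array, whereas those labelled cortisol, from -0.61 to -0.36, did. Mmp9 was 3.33-fold lower with serotonin (log2 difference -1.74 ± 0.12) and 2.90-fold lower with cortisol-serotonin (-1.54 ± 0.12), with Cy5 signals of 211 on both and 624 on the NT array. The differences were larger, -2.14 and -1.91, in the log ratios of the scanner software. Macrophage markers on the 3T3L-1 arrays were lower beside Mmp9: 15 of 15 measured lay below NT with serotonin (median -0.45; Ctss and Lcp1 at least 2-fold lower) and 15 of 16 with cortisol-serotonin (median -0.34; Ctss and Lyz1 at least 2-fold lower), against 10 of 16 with cortisol (median -0.12). With serotonin, only Csf1r, Fcer1g, Ctss and Lcp1 lay below NT by more than their technical errors, and with cortisol-serotonin only Ctss and Lyz1. The summed Cy5 level of the markers was 14943 and 14988 on the arrays with serotonin and 16162 on the NT array. The part of these transcripts in the Mmp9 difference was not tested.

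Mmp2 (gelatinase A) and Mmp14, the membrane-bound enzyme that activates pro-Mmp2 at the cell surface, were not among the lower genes. Mmp2 had log2 ratios of 0.60 (cortisol), 0.95 (serotonin) and 1.51 (cortisol-serotonin), against 0.47 on the NT array. Only the array labelled cortisol-serotonin passed 2-fold, at 2.06-fold higher (1.04 ± 0.33), and this was 0.99 with no background correction and 0.83 in the Cy5 channel alone. Mmp14 had log2 ratios of 0.78, 0.85 and 1.01 on the arrays labelled cortisol, serotonin and cortisol-serotonin, against 0.74 on the NT array. Its differences of 0.04, 0.11 and 0.27 were within their technical errors of 0.32. The ratio of Mmp14 on the array labelled serotonin held a drop in both channels, by 0.40 in Cy5 and by 0.51 in Cy3.

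The TIMP genes did not move together. Timp3, whose protein is held in the extracellular matrix, had log2 ratios of 1.81 (cortisol), -0.11 (serotonin) and 0.43 (cortisol-serotonin), against 2.21 on the NT array. Its Cy5 signals were 3011, 1378 and 1410 on the 3 treated arrays, against 4985 on the NT array. Timp3 had the lowest difference of the 10 genes with serotonin, -2.32 ± 0.36 (4.99-fold lower), and -1.78 ± 0.36 with cortisol-serotonin (3.43-fold lower). With cortisol its difference was -0.40 ± 0.40. Timp2, which also takes part in the activation of pro-Mmp2, had log2 ratios of 0.71, 0.40 and 0.38 on the arrays labelled cortisol, serotonin and cortisol-serotonin, against 0.36 on the NT array, in the probe measured on all 8 arrays. Its other probe was marked as an outlier on the 3T3L-1 arrays labelled cortisol and serotonin. The differences were 0.35 with cortisol and 0.04 with serotonin from the one probe, and 0.12 with cortisol-serotonin as the mean of both probes (0.01 and 0.22), all under 2-fold. RefSeq places Timp1 within the span of the synapsin gene Syn1 and Timp3 within that of Syn3.

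Timp1, a secreted inhibitor of most metalloproteinases, had a lower ratio on the arrays with serotonin that lay mostly in the common reference channel. Its log2 ratios were 2.10 (cortisol), 0.43 (serotonin) and 0.40 (cortisol-serotonin), against 2.20 on the NT array, which is a difference of -1.77 ± 0.36 with serotonin (3.41-fold lower) and -1.80 ± 0.36 with cortisol-serotonin (3.47-fold lower). The Cy5 signals, from the cells, were 34773 (cortisol), 34573 (serotonin) and 41522 (cortisol-serotonin), against 42335 on the NT array. The Cy3 signals, from the reference, were 12188 (cortisol), 22446 (serotonin) and 35459 (cortisol-serotonin), against 14028 on the NT array. After normalisation of both channels, the serotonin difference of Timp1 was made of -0.75 in Cy5 and 1.02 in Cy3, and that of cortisol-serotonin of -0.50 in Cy5 and 1.30 in Cy3. The labels describe the reference as RNA of all samples mixed, and the study's methods as a pool from untreated cells of both lines cultured separately. The Cy3 level of Timp1 ranged over 1.36 log2 units in 3T3L-1 arrays, more than for 97.2% of 15804 probes (median range 0.30). Neither Timp1 difference reached 2-fold in the Cy5 channel alone (-0.73 with serotonin and -0.49 with cortisol-serotonin). The differences of the other lower genes lay in Cy5: -2.17 and -1.90 for Timp3, -1.80 and -1.67 for Mmp9, -1.65 and -1.91 for Mmp10, -1.76 and -0.89 for Mmp13 and -1.06 and -0.67 for Mmp3, with serotonin and cortisol-serotonin in that order.

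**Figure D4:**
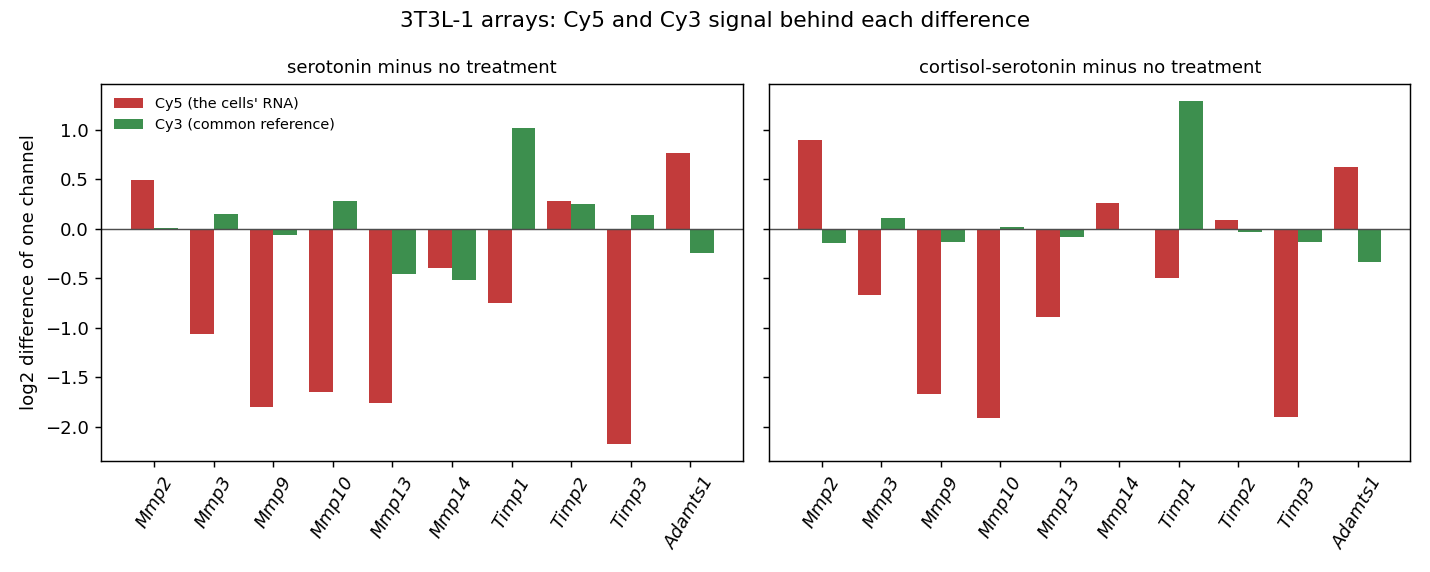
Log2 difference from the NT array of the Cy5 signal (the cells' RNA) and of the Cy3 signal (common reference) of each gene (x axis), both after loess and Aquantile normalisation, for the 3T3L-1 arrays labelled serotonin (left) and cortisol-serotonin (right). Timp1 is the gene whose Cy3 bars, 1.02 and 1.30, exceed its Cy5 bars, -0.75 and -0.50, in size in both panels.

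Adamts1, a secreted protease of the ADAMTS family that cuts proteoglycans such as versican, was the only one of these genes past 2-fold above NT with serotonin. Its log2 ratios were 0.53 (cortisol), 1.06 (serotonin) and 1.01 (cortisol-serotonin), against 0.04 on the NT array. The difference was 1.02 ± 0.31 with serotonin (2.02-fold higher), just past 2-fold, and 0.97 ± 0.30 with cortisol-serotonin and 0.48 ± 0.29 with cortisol, which were not. The Cy5 signals were 14763, 25379 and 19567 on the arrays labelled cortisol, serotonin and cortisol-serotonin, against 10819 on the NT array, so that all 3 treated arrays were above NT. The serotonin difference was 0.77 in the Cy5 channel alone and 0.98 in the scanner software's log ratio, both under 2-fold.

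A comparison that shares no array with the serotonin array and its NT is that of the array labelled cortisol-serotonin with the array labelled cortisol. Here 5 of 10 genes were at least 2-fold lower and 0 higher, beside 1.86% of 13394 genes either way (0.508% lower, 1.35% higher). Mmp10 was 5.16-fold lower (-2.37 ± 0.45), Timp1 3.23-fold lower (-1.69 ± 0.35, of which -0.33 in Cy5), Mmp9 3.04-fold lower (-1.60 ± 0.13), Mmp13 3.03-fold lower (-1.60 ± 0.35) and Timp3 2.59-fold lower (-1.37 ± 0.34). Mmp3 lay just under 2-fold (-0.98 ± 0.38), and Mmp2 had a difference of 0.90 ± 0.33. These genes are those that were lower on the array labelled serotonin, but the values of all these arrays were used to choose them. Between the arrays labelled cortisol-serotonin and serotonin, 0 of the 10 differed by 2-fold (0.0974% of all genes). The differences there ran from -0.05 for Adamts1 to 0.55 for Mmp2, with Timp3 at 0.54 and Mmp13 at 0.50.

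In RAW 264.7 macrophages, 5 of the 10 genes were above background in both channels on all 4 arrays, namely Mmp2, Mmp9, Timp1, Timp2 and Adamts1. Of these, 0 differed by 2-fold from NT with cortisol (0.083% of 13252 genes), 0 with serotonin (0.914%) and 1 with cortisol-serotonin (0.254%), which was Mmp9. Mmp9 had mean log2 ratios over spots of 0.51 ± 0.06 (cortisol), 0.96 ± 0.05 (serotonin) and 0.19 ± 0.08 (cortisol-serotonin), against 1.22 ± 0.08 on the NT array (SD over spots). The spots of the 4 arrays did not overlap: they ran from 0.03 to 0.33 with cortisol-serotonin, 0.40 to 0.60 with cortisol and 0.89 to 1.03 with serotonin, against 1.14 to 1.35 on the NT array. The difference was -1.04 ± 0.10 with cortisol-serotonin (2.05-fold lower), -0.71 ± 0.10 with cortisol and -0.26 ± 0.11 with serotonin. In normalised Cy5 signal these were -0.66, -0.50 and 0.54, the rest lying in Cy3, so the sign for serotonin differed between the ratio and the Cy5 signal. In macrophages the ratio of Mmp9 thus lay below NT on all 3 treated arrays, past 2-fold with cortisol-serotonin only. None of these differences reached 2-fold in Cy5. Macrophage markers in RAW 264.7 cells lay below NT in 13 of 18 measured with cortisol (median -0.08) and 12 of 19 with serotonin (-0.24). With cortisol-serotonin 16 of 19 did (median -0.33), and Itgam and Spi1 were at least 2-fold lower. In 3T3L-1 cells Mmp9 was at least 2-fold lower on both arrays with serotonin. The difference between the lines was not tested. Timp2 had a difference of 0.79 ± 0.59 with serotonin, and Timp1 of -0.17, 0.02 and 0.43 with cortisol, serotonin and cortisol-serotonin, with errors of 0.60 to 0.64. The differences of Timp1, Mmp2 (0.22, 0.44 and 0.46) and Adamts1 (0.16, -0.17 and -0.27) were within their errors, whereas that of Timp2 with serotonin exceeded its error. Against the array labelled cortisol, 0 of 5 differed by 2-fold on the array labelled cortisol-serotonin (0.257% of all genes), and likewise 0 of 5 against serotonin (1.03%).

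Mmp13, Mmp14 and Timp3 were above background on the RAW 264.7 array labelled serotonin alone. Their Cy5 signals there were 115, 106 and 134, against 45, 47 and 53.5 on the NT array, which gives at least 2.15-fold, 1.87-fold and 2.22-fold higher levels. The bounds set the normalised Cy5 signal against the lowest signal well above background, or the gene's own if higher, on the NT array. The array labelled serotonin had the highest median Cy5 signal of the 4, 103 against 58 on the NT array. In the Cy5 channel alone, normalised without Cy3, 8.21% of 12697 measured genes differed from NT by 2-fold on this array, beside 0.914% by ratio. On the scale of the bounds, other members also had higher normalised Cy5 there: Mmp2 (0.96), Timp2 (0.98), Mmp3 (1.03, not well above background), Mmp9 (0.54) and Adamts1 (0.50). Timp1 (-0.32) and Mmp10 (-0.36) were lower. Fibroblast markers were also higher there, with 11 of 12 measured markers above NT (median log2 difference 0.59; Col3a1 at least 2-fold higher). Of these differences, only those of Col3a1, Thy1 and Dlk1 exceeded their technical errors. The rise was not limited to this array. The median was 0.23 with cortisol (3 of 13 measured markers below NT) and 0.39 with cortisol-serotonin (1 of 10 below). On those arrays Mmp13, Mmp14 and Timp3 were not above background. The summed Cy5 level of the fibroblast markers was 5406 with serotonin, 4426 with cortisol and 5016 with cortisol-serotonin, against 4114 on the NT array. On 3T3L-1 arrays it was 240837 to 285141. On both the serotonin and the NT array of RAW 264.7, 9 of 18 markers were not well above background. The part of these transcripts in the 3 genes' signal was not tested. Mmp3 and Mmp10 were not well above background on any RAW 264.7 array, with Cy5 signals of 39 to 76 and 41 to 56.

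Between the lines, 9 of the 10 genes had more signal in 3T3L-1 cells and Mmp9 had more in RAW 264.7 cells. With dim probes kept, the ratios of 10 of 10 did not overlap between lines, beside 37.3% of 31483 genes. Of the 5 genes measured on all 8 arrays, 5 had ratios that did not overlap between lines (70.2% of 10995 genes did not), 4 higher and 1 lower in 3T3L-1 (35.5% and 34.8%). Timp1 had log2 ratios of 0.40 to 2.20 in 3T3L-1 and -4.42 to -3.82 in RAW 264.7, and on the NT arrays it was 87.5-fold higher in 3T3L-1. Timp2 was 47.1-fold higher on the NT arrays by the probe measured on all 8 arrays and 119-fold by its other probe. Mmp2 was 18.3-fold higher and Adamts1 17.5-fold. Mmp9 had log2 ratios of -2.29 to -0.48 in 3T3L-1 and 0.19 to 1.22 in RAW 264.7, and was 3.42-fold lower in 3T3L-1 on the NT arrays. For genes not above background on any macrophage array, the bound compares the mean log2 Cy5 levels over the 4 arrays of each line. This mean was at least 155-fold higher in 3T3L-1 for Mmp3 and at least 4.04-fold for Mmp10. Single 3T3L-1 arrays of Mmp10 differed, from a log2 level of 7.35 with cortisol-serotonin to 9.89 with cortisol. On the NT arrays the level in 3T3L-1 was at least 55.2-fold higher for Timp3, 33.3-fold for Mmp13 and 11.6-fold for Mmp14. The order of the Cy5 signals among genes depends on the probes and was not compared.

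**Figure D5:**
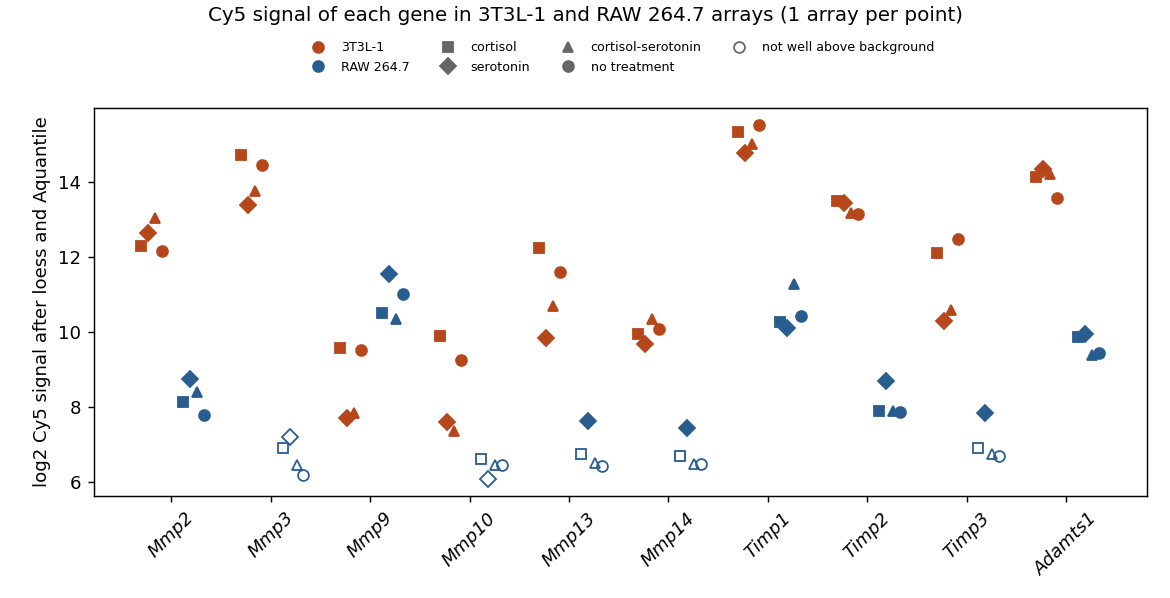
Log2 Cy5 signal after loess and Aquantile normalisation of each gene (x axis) on the 3T3L-1 (orange) and RAW 264.7 (blue) arrays, with a symbol per treatment and open symbols where Cy5 was not well above background; each symbol is 1 array, and Timp2 is shown by its probe measured on all 8. Mmp9 is the gene with the higher signal in RAW 264.7, while Mmp3 and Mmp10 have open symbols on all 4 RAW 264.7 arrays.

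Related proteases and inhibitors were taken from lists of such genes, and their values in 3T3L-1 cells follow in the order cortisol, serotonin and cortisol-serotonin. Of 16 further matrix metalloproteinases with a probe, 3 or 4 were measured per comparison and 0 passed 2-fold, with medians of 0.44, 0.04 and -0.10. Mmp11 (stromelysin 3) had differences of 0.71, -0.09 and -0.22 and Mmp19 of 0.29, 0.36 and 0.52. Of the ADAM sheddases, which cut proteins off the cell surface, 8 were measured and 0 passed 2-fold, with medians of 0.00, 0.01 and -0.05 and with Adam10 at -0.57, -0.12 and -0.30. The other ADAMTS proteases, of which 4 to 6 were measured, had medians of 0.24, 0.02 and 0.03. Adamts4, an aggrecan-cutting enzyme, was higher with cortisol (1.15, against -0.32 with serotonin), and Adamts2, which processes procollagen, passed 2-fold with cortisol-serotonin (1.00) and had 0.90 with serotonin. The 6 measured inhibitors and partners had medians of -0.10, 0.08 and 0.17. Of these, Thbs1 (thrombospondin 1) was at least 2-fold lower with cortisol (-1.46), while the hyaluronan receptor Cd44 had -0.07, -0.02 and 0.01 and the metalloproteinase inducer Bsg -0.02, 0.17 and 0.38.

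The plasminogen activator system, whose product plasmin can activate several pro-metalloproteinases, had 6 of 8 genes measured in 3T3L-1 cells, with median differences of -0.72 (cortisol), -0.32 (serotonin) and -0.58 (cortisol-serotonin). Plau (urokinase) was at least 2-fold lower with all 3 treatments, with large technical errors (-1.05 ± 0.69, -1.79 ± 0.75 and -1.36 ± 0.73). Serpinb2, which inhibits it, was at least 2-fold lower with serotonin (-1.42) and at -0.98 with cortisol and with cortisol-serotonin. In RAW 264.7 cells Plau was lower with serotonin (-1.38). Of the AP-1 factors, 8 were measured in 3T3L-1 cells and 0 passed 2-fold, with medians of -0.20, -0.32 and -0.16. Fosl1 had 0.05, -0.05 and 0.11, Jun -0.18, -0.27 and -0.09, Jund -0.38, -0.74 and -0.70 and Fosl2 -0.80, -0.53 and -0.57 with cortisol, serotonin and cortisol-serotonin. In RAW 264.7 cells Atf3 was 2-fold higher with cortisol (1.01).

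For Mmp9, Mmp10, Timp1 and Timp3, which passed 2-fold lower with serotonin and with cortisol-serotonin in 3T3L-1 cells, the nearest of 10536 named genes were found by the root mean square distance over the 3 differences from NT. These genes were picked on the same differences, so their nearness to one another is no result. For Mmp9 the nearest genes were Timp1 (distance 0.18), U90926 (0.22) and Sprr2a2 (0.24). For Mmp10 they were Sprr2a2 (0.20), U90926 (0.24) and Mmp9 (0.33). Timp1 was nearest to Mmp9 (0.18), U90926 (0.25) and Il13ra2 (0.25), and Timp3 to Il13ra2 (0.22), U90926 (0.36) and Timp1 (0.36). The Timp1 ratio in these distances holds the Cy3 differences given above. Il13ra2 encodes a receptor for interleukin 13, and Sprr2a2 a small proline-rich protein of the epithelial cornified envelope.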

How the data were processed

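Values came from the scanner files of 8 two-colour arrays (Agilent Feature Extraction 10.5.1.1 per the labels), whose deposited intensity columns are spot medians with local backgrounds. The deposited log10 ratio, its error and the deposited series table (a score column that equalled that log10 ratio within 0.005 over 43020 spots) served as alternatives. Median intensities were corrected with normexp (offset 50) and given a loess normalisation per array, in which control spots had weight 0 (limma 3.58.1, R 4.3.3). Control and outlier-marked spots were then left out and the spots of each probe averaged. For channel levels and bounds, Aquantile followed. Values given for the Cy5 channel alone are on another scale, in which corrected Cy5 signals were quantile normalised across arrays without Cy3. Accessions were named through RefSeq (27508 of 39429 probes, 69.8%; 20886 symbols). A probe entered a comparison where Cy5 and Cy3 were well above background on every array of it. Differences of at least 2-fold were counted, and with 1 array per condition no p-value was computed. Errors are Feature Extraction's for its own log10 ratio, put on the log2 scale, and cover an array's technical error only. The scanner files held no saturated spots (0 per array). Arrays correlated at -0.22 or above over 13172 probes. All 10 members are named; of the other lists, genes past 2-fold, or else up to 4 of the brightest, and for Mmp9, Mmp10, Timp1 and Timp3 the nearest genes. The members and lists were chosen with earlier results of these data known. The steps were run on simulated data made from copies of 1 array, with known changes and noise added. Neither a dye shift that varies with signal between arrays nor a drift of the reference was simulated, so handling of these was not tested. No probe or protein sequence was used here.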

Additional observations from a re-analysis of the deposited data

How the results depend on the processing

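Single differences of the genes from NT (45 values) moved by less than their technical error in 45 values with no background correction and 45 with no filter on dim probes, in 41 with the scanner software's log ratio or the deposited table, in 37 in the Cy5 channel alone and in 14 with median centring. Median centring raised the median of all genes to 0.59, 1.07 and 0.99 on the 3T3L-1 arrays labelled cortisol, serotonin and cortisol-serotonin. It turned the serotonin difference of Mmp3 to 0.14 and the cortisol-serotonin difference of Mmp13 to 0.29, and left the serotonin difference of Mmp13 at -0.12. It gave 4 genes past 2-fold with cortisol, all higher (18.4% of all genes passed). It split the genes into 4 higher and 2 lower with serotonin (55.6%) and 4 higher and 1 lower with cortisol-serotonin (49.5%). In the Cy5 channel alone, 3 genes passed with cortisol-serotonin in 3T3L-1 cells (4.44% of all genes), 0 in RAW 264.7 cells (5.19%) and 2 between cortisol-serotonin and serotonin in RAW 264.7 cells (13.1%). With no filter on dim probes, 3 passed with serotonin in RAW 264.7 cells (1.23%) and 2 between cortisol-serotonin and serotonin (1.35%), and 10 of 10 genes did not overlap between the lines (37.3% of 31483 genes). The other counts of the 10 genes past 2-fold in either direction, or not overlapping between lines, stayed within 1.5 times of those given. Shares of all genes moved further: in the scanner software's log ratio, 4.4%, 2.75% and 2.71% passed 2-fold with cortisol, serotonin and cortisol-serotonin in 3T3L-1 cells, and 0.49%, 3.51% and 0.913% in RAW 264.7 cells. With median centring, 46.8% of genes did not overlap between the lines. No paired analysis was possible because each condition has 1 array, and no array could be left out. Signals near background limit Mmp3, Mmp10, Mmp13, Mmp14 and Timp3 in macrophages.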
